A study of Mus musculus with 10 samples.

Results

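The translation initiation factors (Eif genes) and elongation factors (Eef genes) were followed in long-term hematopoietic stem cells (LT-HSCs) whose macrophage niche had been depleted. Members were the rows of the deposited gene table whose symbol began with Eif or Eef followed by a digit, which gave 74 of 17404 genes. The LT-HSCs had been sorted from mouse fetal liver at E14.5 and sequenced as bulk RNA by SmartSeq2. The 6 KO libraries came from Tnfrsf11aCre; Spi1f/f embryos and the 4 WT libraries from Tnfrsf11a+/+; Spi1f/f embryos, so that both groups carried floxed Spi1 and only KO carried Cre. Tnfrsf11a drives Cre in macrophage precursors, where it deletes Spi1, the gene of the transcription factor PU.1. Each library was counted as 1 replicate. In the study a replicate is an embryo.

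Initiation begins when eIF2, loaded with GTP by the exchange factor eIF2B, brings the initiator tRNA to the small ribosomal subunit, which eIF3, eIF1 and eIF1A prepare for scanning. The mRNA is brought in through its cap by eIF4E, the scaffold eIF4G and the helicase eIF4A. Elongation then runs on eEF1A, which delivers aminoacyl-tRNA and is recharged by the eEF1B subunits, and on eEF2, which moves the ribosome along. Stem cells of the adult bone marrow are known for a low and tightly held rate of protein synthesis. In the fetal cells studied here that rate was not measured.

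Between 5315435 and 30941726 counts per KO library and 7633446 and 18256010 per WT library fell on genes, and the members held 1.99% to 3.29% of them. Values are given as CPM, counts scaled to the size of the library, after normalization by TMM, which scales libraries so that most genes are level, and differences as log2 fold changes of KO over WT with their standard error. They were tested with edgeR's quasi-likelihood test over all 16725 genes with at least 11 counts in total, and a gene was called where the p-value adjusted by Benjamini-Hochberg lay below 0.1. In bulk RNA, fewer cells of a type and less RNA per cell cannot be told apart. Spi1 itself had 9.10, 65.6 and 101 CPM as the lowest, median and highest KO value and 6.22 to 50.1 CPM in WT, with adjusted p = 0.337 by edgeR. It does not check the labels, since Cre was not aimed at the LT-HSCs.

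Of the 74 members, 73 had enough counts to be tested, and 15 were lower and 0 higher in KO. Across all genes tested, 2.67% were called lower and 1.32% higher. The 15 genes were Eif2b1, Eif2b3, Eif2b5, Eif2s1, Eif3b, Eif3d, Eif3g, Eif3j2, Eif3k, Eif3l, Eif1ad, Eif6, Eef1d, Eef1g and Eef1e1. Their WT levels were 1.53 to 2.35 times the KO levels in the fit, and 10 of the 15 belonged to eIF2B, eIF2 or eIF3. All 15 adjusted p-values from edgeR lay between 0.0824 and 0.0996, against a smallest value of 0.0743 over all genes, so that the calls stood just inside the threshold. At an unadjusted p below 0.05, 31 members were lower and 0 higher, where 10.2% and 8.6% of all genes were. DESeq2 with the study's log2 fold-change threshold of 0.1 also called 15 members lower and 0 higher, 14 of them the same, where 3.29% of all genes were lower and 3.5% higher.

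The median log2 fold change of the tested members was -0.39, and that of all genes tested was 0.06. Among the members, 62 had a value below 0 and 11 above 0 (among the latter Eif1ad6, with no count in WT), where 46.9% of all genes tested were below 0. In 19 members every KO library lay below every WT library, an ordering found in 3.48% of all genes tested, and in 0 members did every KO library lie above, as in 2.88% of all genes. Beside the 15 called genes these were Eif2s2, Eif3m, Eif5 and Eif4e.

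**Figure D1:**
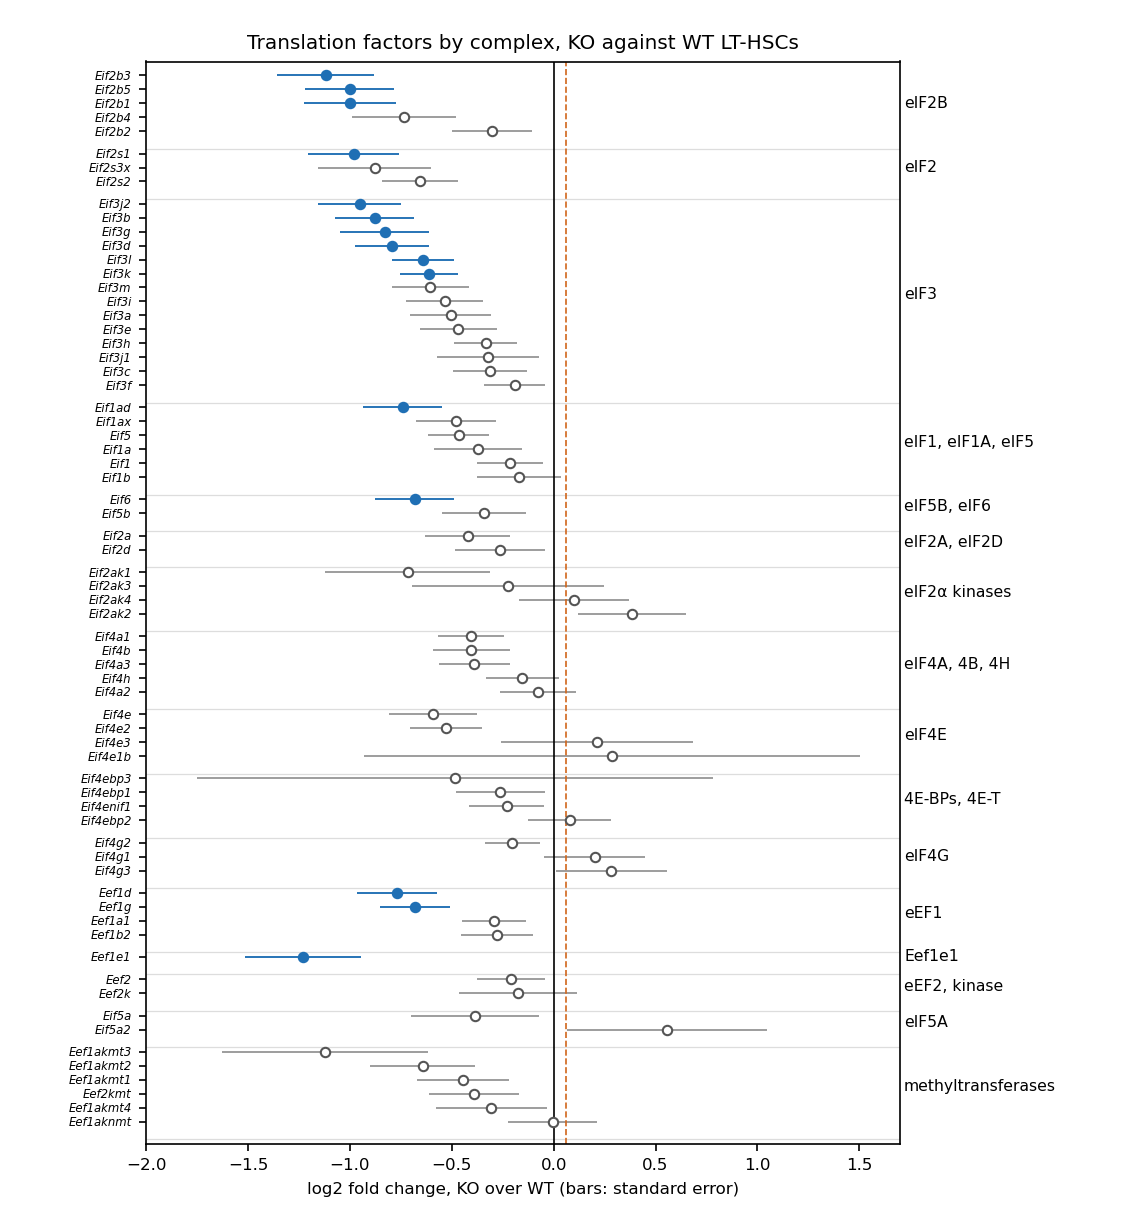
Log2 fold change of each tested member in KO over WT LT-HSCs (x axis), in rows by factor group, with bars for the standard error. Filled blue points are the 15 members called lower, the dashed line marks the median of all genes tested (0.06), and 6 gene copies and pseudogenes are left out. The eIF2B, eIF2 and eIF3 points lie to the left of 0, and the eIF4G, 4E-BP and eIF2α kinase points lie around it.

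The exchange factor eIF2B showed the lowest median of the groups with more than 1 member. It is a decamer of 5 different subunits, and 3 of its 5 genes were called lower, with a median log2 fold change of -1.00. Eif2b3, on chromosome 4 (GRCm38, 117019402 to 117087306, plus strand), encodes the gamma subunit, which together with epsilon forms the catalytic part. It had 37.5, 50.6 and 65.0 CPM as the lowest, median and highest of the 6 KO libraries. The WT values were 164, 95.4, 79.0 and 91.3 CPM in replicates 15416, 15417, 15418 and 15420, all above the KO range. Its log2 fold change was -1.12 ± 0.24 (SE), with adjusted p = 0.0824 by edgeR.

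Eif2b5, on chromosome 16 (20498817 to 20509323, plus strand), encodes the epsilon subunit, which carries the exchange activity itself. KO libraries ran from 56.3 through a median of 76.7 to 93.8 CPM, and WT replicates 15416, 15417, 15418 and 15420 had 178, 152, 172 and 96.9 CPM. WT replicate 15420 lay just above the highest KO library, and the other WT libraries stood well clear. The log2 fold change was -1.00 ± 0.22 (SE; adjusted p = 0.0824, edgeR).

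Eif2b1, on chromosome 5 (124570213 to 124579131, minus strand), encodes the alpha subunit of the regulatory core that senses phosphorylated eIF2. Its KO range was 102 to 146 CPM around a median of 128, and its WT values were 394, 204, 165 and 244 CPM in the same order of replicates. The groups did not overlap, and the log2 fold change was -1.00 ± 0.23 (SE; adjusted p = 0.0824, edgeR). The other regulatory subunits, beta and delta, did not pass the test. Eif2b4 had a log2 fold change of -0.73 (adjusted p = 0.157, edgeR) and Eif2b2 one of -0.30 (adjusted p = 0.431, edgeR), and for both the KO and WT ranges overlapped.

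The 3 subunits of eIF2, which carries the initiator tRNA, had log2 fold changes from -0.98 to -0.65. Eif2s1, on chromosome 12 (78861819 to 78887010, plus strand), encodes the alpha subunit whose phosphorylation turns eIF2 into an inhibitor of eIF2B. It had 141, 166 and 237 CPM as the lowest, median and highest KO value, and 525, 272, 297 and 270 CPM in WT replicates 15416, 15417, 15418 and 15420. No KO library reached the WT range, and the log2 fold change was -0.98 ± 0.22 (SE; adjusted p = 0.0824, edgeR). Eif2s2, the beta subunit, had KO values of 165 to 265 CPM around a median of 208, and WT values of 366, 318, 266 and 379 CPM. Its groups were separate by under 1 CPM, and with a log2 fold change of -0.65 ± 0.19 (SE) it stood just outside the threshold by edgeR (adjusted p = 0.101) and just inside it by DESeq2 (adjusted p = 0.0985).

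The gamma subunit of eIF2 is encoded by 2 mouse genes, Eif2s3x on the X and Eif2s3y on the Y chromosome, which ties it to the sex of the embryo. Only Eif2s3x was a row of the gene table. It had 97.5 to 259 CPM in KO and 503, 281, 318 and 220 CPM in WT, with overlap, and a log2 fold change of -0.88 ± 0.28 (SE; adjusted p = 0.124, edgeR). In the transcript tables Eif2s3y had 33.5 to 51.8 CPM in 4 KO libraries and 0.866 to 2.37 CPM in the other 2, which instead held Xist, the RNA of the inactive X, at 346 and 361 CPM. All 4 WT libraries held Xist (106 to 149 CPM), with Eif2s3y at 0.665 to 2.50 CPM. Sex was thus unevenly spread over the genotypes. Eif2s3x had 213 and 259 CPM in the Xist-expressing KO libraries and 97.5 to 194 CPM in the others. The sum of both copies was 149 to 260 CPM in KO and 222 to 505 CPM in WT. In the fit on Xist-expressing libraries alone, the log2 fold change of Eif2s3x was -0.50.

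In all 15 called members, which are autosomal, every KO library lay below every WT library. The 2 Xist-expressing KO libraries therefore did so too, which is no separate check on sex. In the edgeR fit on Xist-expressing libraries alone, 0 of the 71 members fitted were called and 8 were lower at an unadjusted p below 0.05. With the level of Xist (log2 CPM) added to the model the median of the members was -0.41, and 27 members were lower at an unadjusted p below 0.05, but no gene of the table passed the adjusted threshold (smallest adjusted p = 0.251 by edgeR). The share of all genes at that unadjusted p was not taken in these fits, so the counts of members have no background beside them.

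eIF3 is the largest initiation factor, a scaffold of subunits a to m on the small ribosomal subunit, and eIF3j is its loosely bound partner. All 14 of its genes had a log2 fold change below 0, with a median of -0.57, and 6 were called lower, while 7 were separate between groups. The called genes came from both of its parts. Eif3b and Eif3g belong to the core that is conserved in yeast, and Eif3d, Eif3k and Eif3l to the further subunits found in mammals.

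Eif3b, on chromosome 5 (140419328 to 140443360, plus strand), encodes the scaffold on which the core is built. It had a KO range of 155 to 273 CPM with a median of 179, and WT values of 437, 335, 283 and 339 CPM in replicates 15416, 15417, 15418 and 15420. The highest KO library, replicate 15409, was within 10 CPM of the lowest WT library. The log2 fold change was -0.88 ± 0.19 (SE; adjusted p = 0.0824, edgeR). Eif3g, on chromosome 9 (20894349 to 20898623, minus strand), an RNA-binding subunit next to eIF3b, ran from 202 through 264 to 311 CPM in KO and had 708, 415, 411 and 323 CPM in WT. Its log2 fold change was -0.83 ± 0.22 (SE; adjusted p = 0.0896, edgeR).

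Eif3d, on chromosome 15 (77958998 to 77970813, minus strand), encodes a subunit that can itself bind the cap of some mRNAs. KO values were 169 to 246 CPM around 222, and WT values 516, 321, 341 and 336 CPM. The gap between the groups was wider here than in Eif3b, and the log2 fold change was -0.79 ± 0.18 (SE; adjusted p = 0.0824, edgeR). An annotated antisense gene, Gm17638, covers 43.3% of the exon bases of Eif3d, and reads of the 2 strands cannot be told apart without strand.

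Eif3k (chromosome 7, 28971372 to 28981864, minus strand) and Eif3l (chromosome 15, 79075179 to 79094405, plus strand) encode a pair of subunits that sit together at the edge of the complex. Eif3k was the most even member in KO, with 262, 265 and 278 CPM as lowest, median and highest value, and had 471, 332, 393 and 434 CPM in WT. Its log2 fold change of -0.61 ± 0.14 (SE; adjusted p = 0.0824, edgeR) was the smallest among the called genes. Eif3l ran from 259 through 289 to 334 CPM in KO and had 551, 397, 461 and 435 CPM in WT, with a log2 fold change of -0.64 ± 0.15 (SE; adjusted p = 0.0824, edgeR). Both genes were thus lower by a similar amount and free of overlap.

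Promoter stretches of Eif3k, Eif3d and Eif3l are shown because these 3 were the called members whose window held a searched motif. RefSeq windows of 300 bases, 250 before to 50 after the annotated start (GRCm38.p6), were at hand for 53 members, 10 of them called. They were searched on both strands for CACGTG, the E-box bound by MYC and related factors, and for CCGGAAGT, a motif of ETS factors. In the stretches below, each written along the gene's strand, capitals mark the match, and the 2 motifs do not overlap.
Eif3k, chr7:28981892-28981967, minus strand, CACGTG: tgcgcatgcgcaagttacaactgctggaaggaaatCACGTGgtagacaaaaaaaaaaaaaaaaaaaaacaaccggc
Eif3d, chr15:77970853-77970930, minus strand, CCGGAAGT read on the other strand: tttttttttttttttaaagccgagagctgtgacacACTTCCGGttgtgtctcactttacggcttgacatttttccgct
Eif3l, chr15:79075152-79075229, plus strand, CCGGAAGT read on the other strand: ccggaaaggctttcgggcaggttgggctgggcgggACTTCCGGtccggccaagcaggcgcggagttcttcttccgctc

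The matches began 44 bases before the annotated start in Eif3k, 71 in Eif3d and 36 in Eif3l. CACGTG was in the promoter of 14 of the 53 members (26.4%), in 10.5% of the tested genes with a window and in 8.09% of all 27025 genes with one. CCGGAAGT was in 9 members (17.0%), in 7.22% of tested genes and in 4.31% of all. Among the 10 called members with a window, 1 held CACGTG (10%) and 2 held CCGGAAGT (20%), against 26.4% and 17.0% of the 53 members. The windows of Eif3b, Eif3g, Eif2b1, Eif2b5, Eif2s1, Eif1ad and Eef1e1 held neither. A match is a run of letters and not a measured site.

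Eif3j2 was the called member with the smallest p, and also the least certain. It is an intronless copy of Eif3j1, and 94.9% of its stretches of 31 bases, the word length by which Kallisto assigns reads by default, are also in transcripts of other genes, mainly Eif3j1. It had 27.7 to 46.7 CPM in KO around a median of 43.0, and 96.2, 66.5, 73.3 and 76.1 CPM in WT, with a log2 fold change of -0.95 ± 0.20 (SE; adjusted p = 0.0824, edgeR). Eif3j1 had a log2 fold change of -0.32 (adjusted p = 0.521, edgeR). The 2 genes together had 58.8 to 103 CPM in KO and 108 to 162 CPM in WT, still without overlap, so that the sum does not depend on how reads were split between them.

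Eif3m, another of the further subunits, was separate but not called, with 204 to 236 CPM in KO and 483, 259, 259 and 335 CPM in WT (log2 fold change -0.61 ± 0.19 (SE), adjusted p = 0.121, edgeR). The remaining 7 subunit genes had log2 fold changes from -0.53 (Eif3i) to -0.19 (Eif3f), with overlapping ranges.

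**Figure D2:**
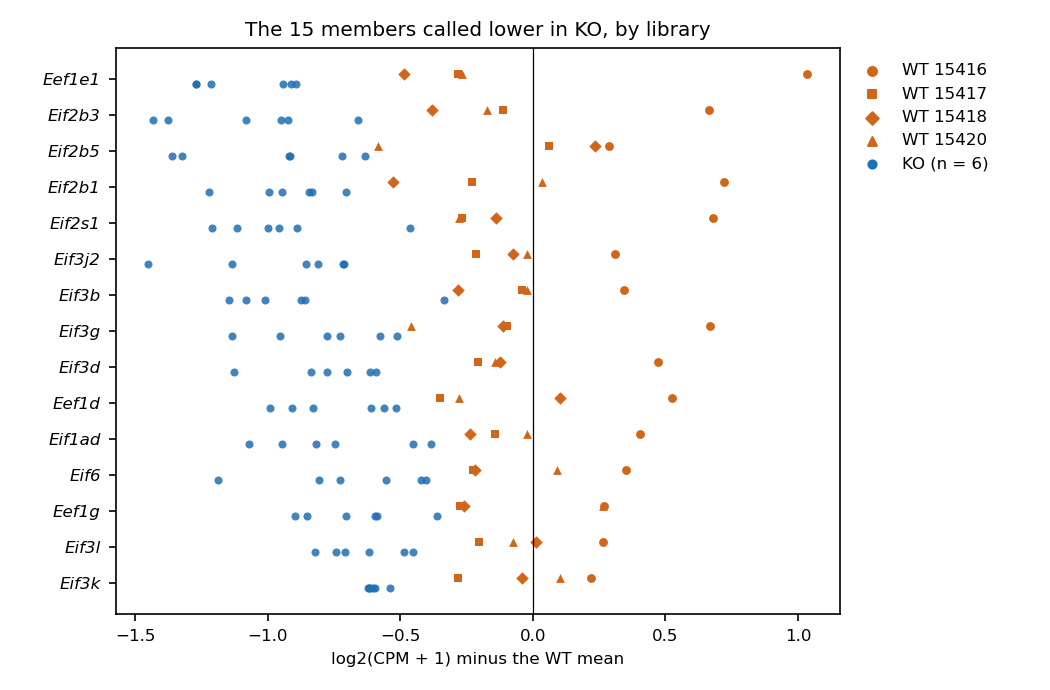
Log2(CPM + 1) minus the WT mean (x axis) of the 15 members called lower, in rows, with 1 point per library: KO in blue, WT in orange with a symbol for each replicate. No KO point reaches a WT point of its row, and WT replicate 15416 (circle) is the highest WT point in every row.

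The group of start codon factors, in which Eif1ad was counted, had a median log2 fold change of -0.42. Of its 6 genes 1 was called lower. Eif1ad, on chromosome 19 (5366741 to 5371526, plus strand), encodes a protein with an eIF1A-like domain. Its KO range was 82.6 to 133 CPM around 101 and its WT values were 231, 158, 148 and 172 CPM, and the log2 fold change was -0.74 ± 0.20 (SE; adjusted p = 0.0885, edgeR). Its exons overlap those of Banf1, on the opposite strand, over 15.3% of their bases. Eif5, which triggers GTP hydrolysis on eIF2 when the start codon is found, was separate but not called, with KO values of 321 to 467 CPM around 395 and WT values of 547, 519, 513 and 593 CPM (log2 fold change -0.47 ± 0.15 (SE), adjusted p = 0.129, edgeR). Eif1, the start codon monitor, had 467 to 802 CPM in KO and 689, 742, 777 and 755 CPM in WT, and its log2 fold change of -0.21 (adjusted p = 0.514, edgeR) became 0.11 with an offset for transcript length. Eif1a, Eif1ax and Eif1b had log2 fold changes from -0.48 to -0.17, none called.

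Eif6, on chromosome 2 (155819832 to 155826925, minus strand), encodes the factor that keeps free large subunits from joining. It had 146 to 251 CPM in KO around 214, and 424, 285, 286 and 355 CPM in WT, without overlap. Its log2 fold change of -0.68 ± 0.19 (SE) was the weakest call by edgeR (adjusted p = 0.0996), and DESeq2 gave an adjusted p of 0.106. Eif5b, the GTPase that does the joining, had a log2 fold change of -0.34 (adjusted p = 0.393, edgeR). Eif2a and Eif2d, which can deliver initiator tRNA without eIF2, had -0.42 and -0.26 (adjusted p = 0.299 and 0.563, edgeR).

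On the cap side of initiation 0 of 16 members were called in either direction by edgeR, and 4 of them were lower at an unadjusted p below 0.05. DESeq2 at the study's settings also called 0 of them. Eif4e, the cap-binding protein, was separate by under 1 CPM, with a highest KO value of 228.6 and a lowest WT value of 228.9 CPM. Its WT values of 485, 270, 229 and 232 CPM were carried by replicate 15416, and its log2 fold change of -0.59 ± 0.22 (SE; adjusted p = 0.172, edgeR) was -0.27 without that library. Eif4e2, a cap-binding repressor, had -0.53 ± 0.18 (SE; adjusted p = 0.144, edgeR). Eif4a1, the main helicase, had 1217 to 1744 CPM in KO and 2451, 1849, 1777 and 1666 CPM in WT, with overlap, and a log2 fold change of -0.41 ± 0.16 (SE; adjusted p = 0.204, edgeR).

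The eIF4G scaffolds lay on both sides of 0. Eif4g1 had a log2 fold change of 0.20, Eif4g3 of 0.28 and Eif4g2, which initiates without the cap, of -0.20 ± 0.14 (SE), with adjusted p-values of 0.451 to 0.715 by edgeR. The 4E-BPs, which hold eIF4E away from eIF4G, did not pass the test either. Eif4ebp1 had -0.26 and Eif4ebp2 0.08 (adjusted p = 0.564 and 0.877, edgeR), and Eif4enif1, the eIF4E transporter, had -0.23 ± 0.18 (SE; adjusted p = 0.538, edgeR).

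The 4 kinases that phosphorylate eIF2 alpha under stress were not called by edgeR or DESeq2, and none had an unadjusted p below 0.05. Eif2ak1, the heme-regulated kinase, had 48.8 to 141 CPM in KO around 81.8 and 123, 107, 301 and 66.1 CPM in WT. The high value of WT replicate 15418 set its log2 fold change of -0.72 ± 0.41 (SE; adjusted p = 0.368, edgeR). Eif2ak2, Eif2ak3 and Eif2ak4, which answer to double-stranded RNA, unfolded proteins and amino acid shortage, had 0.38, -0.22 and 0.10. The kinases thus gave values on both sides of 0, while the eIF2 and eIF2B genes were all below it.

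In elongation, Eef1g and Eef1d, 2 of the 3 accessory subunits of eEF1, were called lower, and Eef1b2, Eef1a1 and Eef2 did not pass the test. Eef1g, on chromosome 19 (8967041 to 8978479, plus strand), encodes the structural gamma subunit of eEF1B. It had 854, 1016 and 1239 CPM as lowest, median and highest KO value and 1920, 1316, 1328 and 1914 CPM in WT, with a log2 fold change of -0.68 ± 0.17 (SE; adjusted p = 0.0836, edgeR). Of its stretches of 31 bases, 47.6% are shared with other genes, mostly the copy Gm4366. Eef1d, on chromosome 15 (75894205 to 75909556, minus strand), encodes the delta subunit, an exchange factor for eEF1A. Its KO values ran from 242 through 294 to 337 CPM and its WT values were 696, 378, 519 and 398 CPM, with a log2 fold change of -0.77 ± 0.20 (SE; adjusted p = 0.0836, edgeR).

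Eef1b2, the beta exchange subunit, had 458 to 689 CPM in KO and 769, 553, 525 and 759 CPM in WT. These ranges overlapped, and its log2 fold change of -0.28 ± 0.18 (SE; adjusted p = 0.422, edgeR) became 0.025 with the offset for transcript length. Eef1a1, the most abundant member, had 5240 to 6899 CPM in KO around 6032 and 7953, 6044, 6182 and 9282 CPM in WT, with a log2 fold change of -0.29 ± 0.16 (SE; adjusted p = 0.347, edgeR). Eef2 had 1617 to 1935 CPM in KO and 2554, 1966, 2276 and 1430 CPM in WT (log2 fold change -0.21 ± 0.17 (SE), adjusted p = 0.539, edgeR). Eif5a, the hypusinated factor that eases stalled ribosomes, ranged from 803 to 1504 CPM in KO and had 2367, 1742, 1974 and 569 CPM in WT. Its WT libraries thus spanned more than the whole KO range (log2 fold change -0.39 ± 0.31 (SE), adjusted p = 0.551, edgeR).

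Eef1e1, on chromosome 13 (38644207 to 38659058, minus strand), had the largest difference of the called members. Its protein belongs to the complex of aminoacyl-tRNA synthetases rather than to eEF1 itself. KO values were 42.9 to 56.1 CPM around 49.5, and WT values 216, 86.1, 74.7 and 87.0 CPM. WT replicate 15416 stood far above the other WT libraries, and the log2 fold change of -1.23 ± 0.28 (SE; adjusted p = 0.0824, edgeR) was -0.74 without it. The 6 methyltransferases of eEF1A and eEF2 were not called, with log2 fold changes from -1.12 to -0.01 and 2 of them lower at an unadjusted p below 0.05. Eef1akmt2, which had the smallest p among them, had -0.64 ± 0.26 (SE; adjusted p = 0.205, edgeR). The 6 gene copies and pseudogenes were at most 5.66 CPM in any library apart from Eif4a3l1, which reached 7.08 CPM, and none was called by edgeR or DESeq2 or had an unadjusted p below 0.05. Eif1ad6 had the smallest p of them, with 0 CPM in all 4 WT libraries and at most 0.433 CPM in KO, and no fold change is given.

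The mRNAs known to begin with a 5′ terminal oligopyrimidine tract, through which mTOR controls their translation, were taken as a group of 10 (Eef1a1, Eef1b2, Eef1d, Eef1g, Eef2, Eif3a, Eif3e, Eif3f, Eif3h and Eif4b). All 10 had log2 fold changes below 0, with a median of -0.37, and 2 of the 10, Eef1d and Eef1g, were called lower. Their median was close to that of all members (-0.39). The list summed to 9809 to 11819 CPM in KO and 11877 to 16309 CPM in WT.

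WT replicate 15416 stood apart in these genes. It was the highest of the WT libraries in all 15 called members and the highest of all 10 libraries in 42 of the 73 tested. Without it 0 members were called by edgeR and 21 were lower at an unadjusted p below 0.05, a count for which the share of all genes was not taken. The median was -0.29 and the 15 genes kept values below 0. The calls were also lost without any 1 of KO replicates 15405, 15406, 15411, 15412 and 15415, when the threshold over all genes was passed by at most 1 gene. In each of the leave-one-out fits all 15 genes remained below 0. Since KO and WT did not overlap in these genes, leaving out 1 library could hardly change the sign, also for WT replicate 15416.

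**Figure D3:**
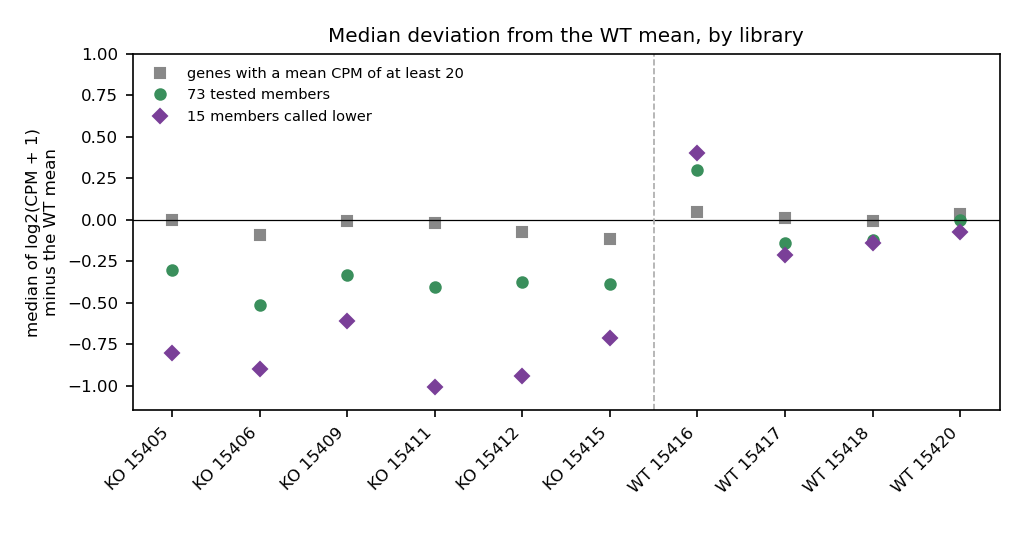
Median over genes of log2(CPM + 1) minus the WT mean (y axis) in each library (x axis), for the 73 tested members, the 15 called lower and the genes with a mean CPM of at least 20. The members' medians lie between -0.51 and -0.30 in KO and between -0.14 and 0.30 in WT, and the common genes lie near 0 in every library.

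The result rested on the scaling of the libraries. TMM factors were 0.977 to 1.19 in KO and 0.741 to 1.01 in WT, and without them KO values rise against WT. In CPM without these factors 1 of the 15 called genes was separate. In the deposited TPM 0 of the 15 were, although the mean TPM was lower in KO for all 15. TPM are transcript levels scaled by transcript length and to a fixed sum, but not otherwise between libraries. Of the 7760 genes with a mean CPM of at least 20 that also had TPM, 0.606% and 0.193% were separate and lower on these scales. In TMM-normalized CPM 6.75% were. In TPM divided by the TMM factors 7 of the 15 were separate, against 1.33% of those genes. Over the 62 members with a mean CPM of at least 20 the median log2 ratio of group means was -0.41 in TMM-normalized CPM, -0.16 without the factors and -0.01 in TPM. Over the 7760 common genes that also had TPM it was -0.09, 0.17 and 0.33. In TMM-normalized CPM, in CPM without the factors and in TPM the members thus lay below the common genes by 0.31, 0.33 and 0.35. The level of the members on its own is not fixed by these data. DESeq2 size factors in edgeR gave 14 calls and upper-quartile scaling 13, all lower.

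Length and abundance also mattered. With a loess offset on transcript length 0 members were called, since no gene of the table passed (smallest adjusted p = 0.107 by edgeR). The median was -0.34, and 28 were lower at an unadjusted p below 0.05, again without the share of all genes. Most members are abundant. Among genes with a mean CPM of at least 20, 5.41% were called lower, against 24.2% of the 62 members at that level.

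Levels between genes were compared in TPM, which is per length. Eef1a1 held 30.2% ± 3.9 (SD, n = 10) of the summed TPM of all members, with 4197 to 6644 TPM in KO and 3308 to 7624 TPM in WT. It was followed by Eif5a, Eif1, Eif4a1 and Eef1b2, with means over the 10 libraries of 1302, 1150, 962 and 879 TPM. By group, eEF1 summed to 7452 ± 1138 TPM (SD, n = 6) in KO and 7580 ± 2280 TPM (SD, n = 4) in WT, and eIF3 to 2563 ± 432 and 2769 ± 741 TPM. eIF2B (328 ± 63.5 in KO and 411 ± 142 TPM in WT) and eIF2 (284 ± 69.6 and 382 ± 129 TPM) were far less abundant than the eIF3 subunits together, and the eIF2 kinases summed to 42.8 ± 7.8 and 40.7 ± 11.6 TPM. All of these group sums overlapped between KO and WT. Eef1a2, the muscle and neuron form of eEF1A, was at most 0.014 TPM in any library and, with 1 count in all, the member that was not tested.

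**Figure D4:**
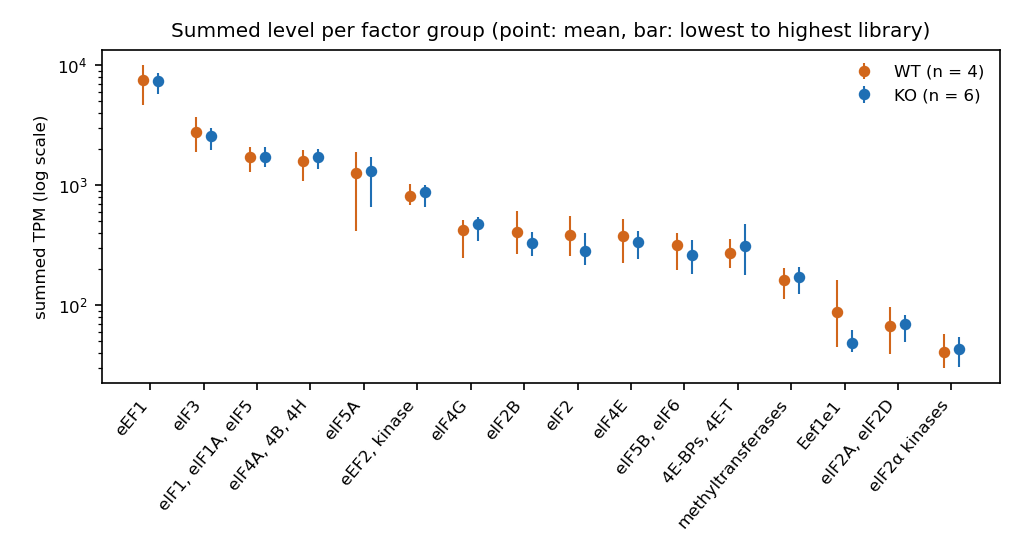
Summed TPM of each factor group (y axis, log scale) in WT and KO LT-HSCs, with points for the mean and bars from the lowest to the highest library. The order of the groups runs from eEF1 to the eIF2α kinases, and the KO and WT bars overlap in every group.

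Within pairs of related genes the shares of TPM were as follows. Eif4a2 made up 10.7% to 19.3% of the TPM of Eif4a1 and Eif4a2 in KO and 9.47% to 14.2% in WT. Eif5a2 was at most 0.33% of the eIF5A pair, and Eif1b 3.81% to 7.09% of the eIF1 pair. Eif4ebp2 was 3.73% to 9.58% of the sum with Eif4ebp1. Eif4g3 was 21.1% to 30.8% of its sum with Eif4g1 in KO, and in WT it ranged from 12.0% to 58.9%, the highest in replicate 15420. Eif3j2, whose reads are largely shared with Eif3j1, held 63.0% to 78.7% of that pair.

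The gene counts sum all transcripts of a symbol, and the share of TPM on transcripts annotated as retaining an intron differed in 6 of the 38 members with such a transcript and a mean CPM of at least 20. In all 6 the share was higher in every KO library than in any WT library (15.8%), where this was so for 6.68% of 4715 genes of that level and the reverse for 0.721%. In Eif4a2 the share was 13.8% to 22.2% in KO around a median of 17.3%, and 11.1%, 11.1%, 11.2% and 4.1% in WT replicates 15416, 15417, 15418 and 15420. Eif2a had 7.8% to 17.2% in KO and 4.0% to 7.7% in WT, and Eif5 3.1% to 8.5% and 1.3% to 3.1%. The shares of Eif4h, Eif2s2 and Eif3m were at most 4.1% in any library. The median share over the 4715 genes was also higher, at 7.65% in KO against 3.80% in WT. This moves with genotype beside the lower counts of the members, and its part in them was not tested.

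**Figure D5:**
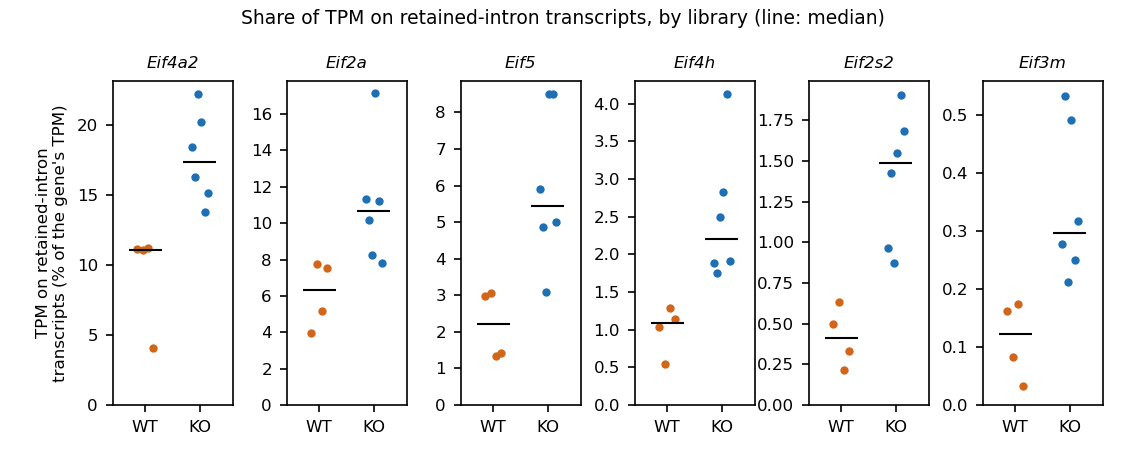
Percent of a gene's TPM on transcripts annotated as retained intron (y axis, a scale of its own for each gene) in WT and KO libraries, with 1 point per library and a line at the median, for the 6 members whose groups do not overlap. All KO points lie above all WT points, from Eif4a2 (13.8% to 22.2% against 4.1% to 11.2%) down to Eif3m, below 1% throughout.

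Markers of the cell types that a sort could hold were read beside these results. Of the 12 genes in the LT-HSC list, 11 had a log2 fold change above 0, with a median of 1.39. The 1 below 0 was Cd48 (-0.60), which marks LT-HSCs by its absence. Hlf, Mecom and Hoxa9 were called higher in KO, and the list had a summed level of 500 to 1926 CPM in KO and 389 to 682 CPM in WT. KO replicate 15409, the lowest KO library in Hlf (13.7 CPM, below the WT range of 17.7 to 32.8 CPM), was also the highest KO library in Eif2s1 and Eif3b. Other LT-HSC genes went the other way in that library. Its Mecom, at 47.2 CPM, lay above the WT range of 9.78 to 45.3 CPM. Its Fgd5, at 174 CPM, was the highest KO value. In Eef1e1 it was the lowest KO library (42.9 CPM). Of the 11 macrophage markers measured, 10 had a log2 fold change below 0, with a median of -1.82, also with the 2 genes without counts in KO set to a floor of 3 counts over the group. The 1 called was Marco, with 0 CPM in all KO libraries and 3.41 to 14.3 CPM in WT, and the list, in which Mrc1 alone had 65.4 to 714 CPM in KO, summed to 144 to 765 CPM in KO and 45.3 to 631 CPM in WT. All 10 erythroblast genes had a log2 fold change below 0, with a median of -1.43, and 1 of them, Epor, was called lower. With the globins the list summed to 1184 to 32941 CPM in KO and 1491 to 83423 CPM in WT. The neutrophil and granule list (4 of 10 below 0, median 0.31) summed to 12.6 to 1337 CPM in KO and 6.14 to 2189 CPM in WT, and the megakaryocyte list (0 of 7, median 1.08) to 256 to 3930 and 251 to 1384 CPM. Endothelial genes (2 of 8, median 0.30) summed to 1096 to 6600 and 396 to 4189 CPM and hepatoblast genes (0 of 8, median 0.72) to 64.5 to 6480 and 157 to 4501 CPM. The lowest endothelial sum in WT was that of replicate 15416. It had 6.07 CPM of Stab2 against 827 to 1090 in the other WT libraries, and 10.2 CPM of Lyve1 against 798 to 1218. Its Ptprb was not the lowest, at 136 CPM against 111 to 187. That library thus also differed from the other WT libraries in these markers. Of the 33 genes in these last 4 lists 0 were called by edgeR or DESeq2 and 1, Vwf, was higher at an unadjusted p below 0.05. No marker in the 7 lists was at 0 in every library. The part of these differences in the lower counts of the members was not tested.

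Other genes of translation were taken in 7 lists. Of the 80 genes tested 1 was lower and 0 higher by edgeR, 17 were lower and 2 higher at an unadjusted p below 0.05, and DESeq2 at the study's settings called 3 lower and 1 higher. The shares of all genes tested were 2.67% lower and 1.32% higher by edgeR and 3.29% and 3.5% by DESeq2. At the unadjusted p they were 10.2% and 8.6%. The 1 gene was Gspt1, the release factor eRF3a, with 62.8 to 99.0 CPM in KO and 223, 134, 101 and 167 CPM in WT (log2 fold change -1.06 ± 0.23 (SE), adjusted p = 0.0824, edgeR). The lists of termination and recycling (9 of 13 below 0, median -0.30), of scanning helicases, reinitiation factors and eIF5 mimics (10 of 10, median -0.33), of mitochondrial factors (10 of 10, median -0.15) and of hypusine and diphthamide synthesis (9 of 10, median -0.38) lay mostly below 0. Those of mTORC1 and cap-dependent control (7 of 23, median 0.16), selenocysteine incorporation (0 of 3, median 0.32) and the integrated stress response (5 of 11, median 0.03) did not. Among all genes tested 46.9% were below 0.

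In the other 6 lists the gene with the smallest p stayed outside the threshold. Srm, spermidine synthase, which supplies the substrate of hypusine, had 190 to 373 CPM in KO and 1039, 473, 473 and 353 CPM in WT (log2 fold change -0.99 ± 0.30 (SE), adjusted p = 0.111, edgeR). Asns, a target of the stress-response factor ATF4, had 120 to 201 CPM in KO and 756, 182, 385 and 128 CPM in WT (log2 fold change -1.32 ± 0.40 (SE), adjusted p = 0.113, edgeR). Gigyf1, a partner of Eif4e2, went the other way, with 16.4 to 53.6 CPM in KO and 6.65 to 21.2 CPM in WT (log2 fold change 1.36 ± 0.41 (SE), adjusted p = 0.113, edgeR). Dhx29 (-0.87), Gfm1 (-0.62) and Secisbp2 (0.33) had adjusted p-values of 0.153, 0.253 and 0.581 by edgeR.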

How the data were processed

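RNA of sorted LT-HSCs was amplified by SmartSeq2 and sequenced as single-end reads. The authors assigned the reads to the transcripts of Gencode vM16 with Kallisto (version 0.44.0 and builds mm10 and GRCm38 in the submitters' processing notes). They deposited, per library, a table of estimated counts per transcript and of TPM, and 1 table of genes in which these estimated counts were summed by symbol and rounded to whole numbers. Per the file headers, the transcript tables also give length and effective length. Sums of the transcript estimates were within 1 count of 97.5% of the gene values.

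The gene counts were tested with edgeR 4.0.16 in R 4.3.3 (TMM, glmQLFit with robust estimation, glmQLFTest) on 16725 genes, those whose counts summed to 11 or more, with a Benjamini-Hochberg threshold of 0.1 as in the study. DESeq2 1.42.0 with the study's log2 fold-change threshold of 0.1 was an alternative, as were other scalings, filters, offsets and each library left out. Standard errors are the log2 fold change over the root of its F value. Libraries were grouped by genotype in the labels. Replicate names are those of the libraries.

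Members were all rows of the symbol rule. Values in each WT library, with the KO range, are given for called members, members whose groups do not overlap and the 5 of highest TPM, and each factor group names its member of smallest p. Other members were named for their role. Members, lists and the rule were chosen with earlier results of these data known. Positions, exon overlaps, transcript classes and shared stretches of 31 bases came from Gencode vM21 (GRCm38), and promoters from RefSeq (GRCm38.p6). Transcripts were found for 72 of the 74 members. Intervals of counting are not given, and reads carry no molecular identifiers. The depth of the libraries, 5315435 to 30941726 counts, limits low members, such as the copies under 8 CPM. Summaries used pandas 2.3.3 and NumPy 2.4.6 under Python 3.11.15, with plots from matplotlib 3.10.9.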

Additional observations from a re-analysis of the deposited data

Results flagged for a closer look

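Of the values of 32 named members in each group, 9 had 1 library far from the others of its group. In all, 63 such groups were checked. About 1 in 20 groups is marked in this way by chance where groups are independent. These groups share the same 10 libraries, so the 9 cannot be set against that rate.

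In WT, replicate 15416 was the highest library each time. It had 216 CPM of Eef1e1 against 74.7 to 87.0 in the other WT libraries, 525 CPM of Eif2s1 against 270 to 297, 516 CPM of Eif3d against 321 to 341 and 485 CPM of Eif4e against 229 to 270.

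In KO, replicate 15409 was the highest library with 237 CPM of Eif2s1 against 141 to 176 in the others and 273 CPM of Eif3b against 155 to 189. Replicate 15415 had 278 CPM of Eif3k against 262 to 267. Replicate 15411 had 30.7 CPM of Eef1akmt2 against 22.9 to 25.1. Replicate 15412 had 0.433 CPM of Eif1ad6, a low row, against 0 to 0.0455.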

How the results depend on the processing

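In the other fits 0 members were called higher, as in the reported one, and the median of the members stayed below 0, from -0.45 in Xist-expressing libraries to -0.29 without WT replicate 15416. The number of members called lower was 13 to 16 with the other scalings, filters, GC offset, average length offsets and dispersion, and 23 with DESeq2 without a fold-change threshold. It was 0 with the transcript length offset, the Xist covariate, an adjusted p below 0.05 and Xist-expressing libraries alone, a setting chosen after seeing the data. It ranged from 0 to 19 with 1 library left out. Of other translation genes, 3 were lower and 1 higher by DESeq2 with the threshold of 0.1, 10 and 1 without it, 5 and 1 with filterByExpr, 2 and 1 with the GC offset, and 0 lower with the length offset, the Xist covariate, an adjusted p below 0.05 and Xist-expressing libraries. Leaving out 1 library gave 0 lower (without WT replicate 15416 or any KO library but 15409) to 7 lower (without KO replicate 15409), and 0 to 2 higher. With the length offset Eif1 changed sign to 0.11 and Eef1b2 to 0.025. The causes were not tested. The share of Eef1a1 in the members' level was 30.2% in TPM and 31.6% in counts over mean transcript length. The study took littermates as controls, but the labels do not give the litter of a library. No paired analysis was therefore possible, and litter was not in the model. Depth limits the copies and pseudogenes, whose counts are few.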
